A study of Mus musculus with 11 samples.

Results

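The inhibitors of cyclin-dependent kinases (CDKs) and the D cyclins were followed in tissue-resident macrophages (macs) of WT mice and of mice in which the gene of the transcription factor ZEB2 was targeted (Zeb2KO). The group was chosen by name and holds 9 of the 27998 genes counted: 6 CDK inhibitors (Cdkn1a, Cdkn1b, Cdkn1c, Cdkn2a, Cdkn2c and Cdkn2d) and 3 D cyclins (Ccnd1, Ccnd2 and Ccnd3). All 9 had unique molecular identifiers (UMIs, each standing for 1 captured mRNA molecule) in the series. Single cells from 11 droplet libraries (10x Genomics, counting at the 3′ end of transcripts) were used, and the question was in which tissues and at what level each gene was found, and which levels differed between genotypes.

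The macs came from brain (microglia), colon (colonic macs, CMs), liver (Kupffer cells, KCs), lung (alveolar macs, AMs) and spleen (splenic macs, SMs). Each tissue gave 1 WT library, from Zeb2fl/fl mice without CRE, and 1 Zeb2KO library, from mice with the same floxed alleles and a CRE transgene. An extra WT library of KCs came from Nr1h3fl/fl mice without CRE, whose Zeb2 alleles are not described as floxed. The mice were C57Bl/6, of both sexes and generally 6 to 8 weeks old, with littermates as controls. The labels give Fcgr1-cre for every Zeb2KO library, but by the study's methods KCs were targeted with Clec4f-cre and AMs with Itgax-cre. By the study, deletion was incomplete in every organ but the brain, so those Zeb2KO libraries also hold macs that kept a working Zeb2 allele. CRE under the Fcgr1 promoter was said to act also in some B cells, T cells and dendritic cells, and Clec4f-cre in few B cells. KCs were sorted on Clec4F, AMs on CD11c and SiglecF, microglia on intermediate CD45, and CMs and SMs as CD64+F4/80+ cells lacking Ly6C, Ly6G and SiglecF.

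D cyclins are the regulatory subunits of CDK4 and CDK6. They accumulate when growth factors such as CSF1 reach a mac, and the kinases they activate phosphorylate the retinoblastoma protein and release E2F factors, which switch on genes for DNA synthesis. The INK4 inhibitors (encoded by Cdkn2a, Cdkn2c and Cdkn2d) bind CDK4 and CDK6 directly, while the CIP/KIP inhibitors (p21, p27 and p57, encoded by Cdkn1a, Cdkn1b and Cdkn1c) bind assembled cyclin-CDK complexes. Microglia and many other tissue-resident macs renew themselves by slow local division, whereas most macs of the adult colon are replaced by blood monocytes.

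After removal of poor-quality barcodes and of clusters with markers of other cells, 2830 to 6974 cells and 8270813 to 43317866 UMIs were kept per library, with medians of 2225 to 9208.5 UMIs per cell. All 5 defining markers of microglia, KCs and SMs were highest in their own WT library, as were 3 of 5 markers of CMs and 3 of 5 of AMs. The deleted part of Zeb2 lies outside the 3′ end, so Zeb2 counts, which were higher in Zeb2KO in every tissue, did not check the labels. Pairs of libraries shared 14 to 76 cell barcodes (0.40% to 1.45% of the smaller library). Levels are UMIs summed over the cells of a library and given as CPM, the UMIs of a gene in each 1000000 UMIs, with the exact Poisson 95% interval, which covers counting error only. There was 1 library per tissue and genotype, so no test within a tissue was possible. The only pair of comparable libraries was that of the WT KCs, and its differences are given beside those of Zeb2KO. A higher CPM can come from more cells with a transcript or from more transcripts per cell, and shares of cells are given beside it for the genes that differed.

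The plot of levels shows the 9 genes in the 11 libraries. In WT macs the genes with the widest range across tissues were Ccnd2 (729-fold from microglia to AMs), Ccnd1 (105-fold from AMs to KCs) and Cdkn1a (55.7-fold from SMs to AMs). Ccnd3, Cdkn2c and Cdkn2d varied by 2.60-fold, 2.76-fold and 3.60-fold. Cdkn2a stayed under 0.9 CPM in the 5 Zeb2fl/fl libraries. When the genotype shift was taken off and the pair of libraries of a tissue stood in for replicates, 7 of the 9 genes differed between tissues (edgeR quasi-likelihood test, Benjamini-Hochberg adjusted over 14158 genes), beside 80.4% of all genes tested. Cdkn1c (adjusted p = 0.0569) and Cdkn2a (adjusted p = 0.0864) did not pass, though Cdkn2a did with cycling cells left out (adjusted p = 0.0184) and Cdkn1c with DESeq2 (adjusted p = 0.00180). In edgeR Cdkn1c also passed with all barcodes (adjusted p = 0.0414), without brain (0.0109) and without the filter on low counts (0.0483). KCs and AMs were sequenced on another instrument than microglia, CMs and SMs, so instrument and tissue cannot be told apart across those groups. Within the 3 tissues of the same instrument 6 of those 7 genes and Cdkn1c passed, beside 70.7% of all genes, and Ccnd1 did not (adjusted p = 0.469). Without lung the adjusted p of Ccnd1 was 0.398, and without spleen that of Cdkn1b was 0.413 and that of Cdkn2d 0.677. Cdkn2d did not pass either with all barcodes (adjusted p = 0.0964) or with the clusters of other cells kept (adjusted p = 0.0957).

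**Figure D1:**
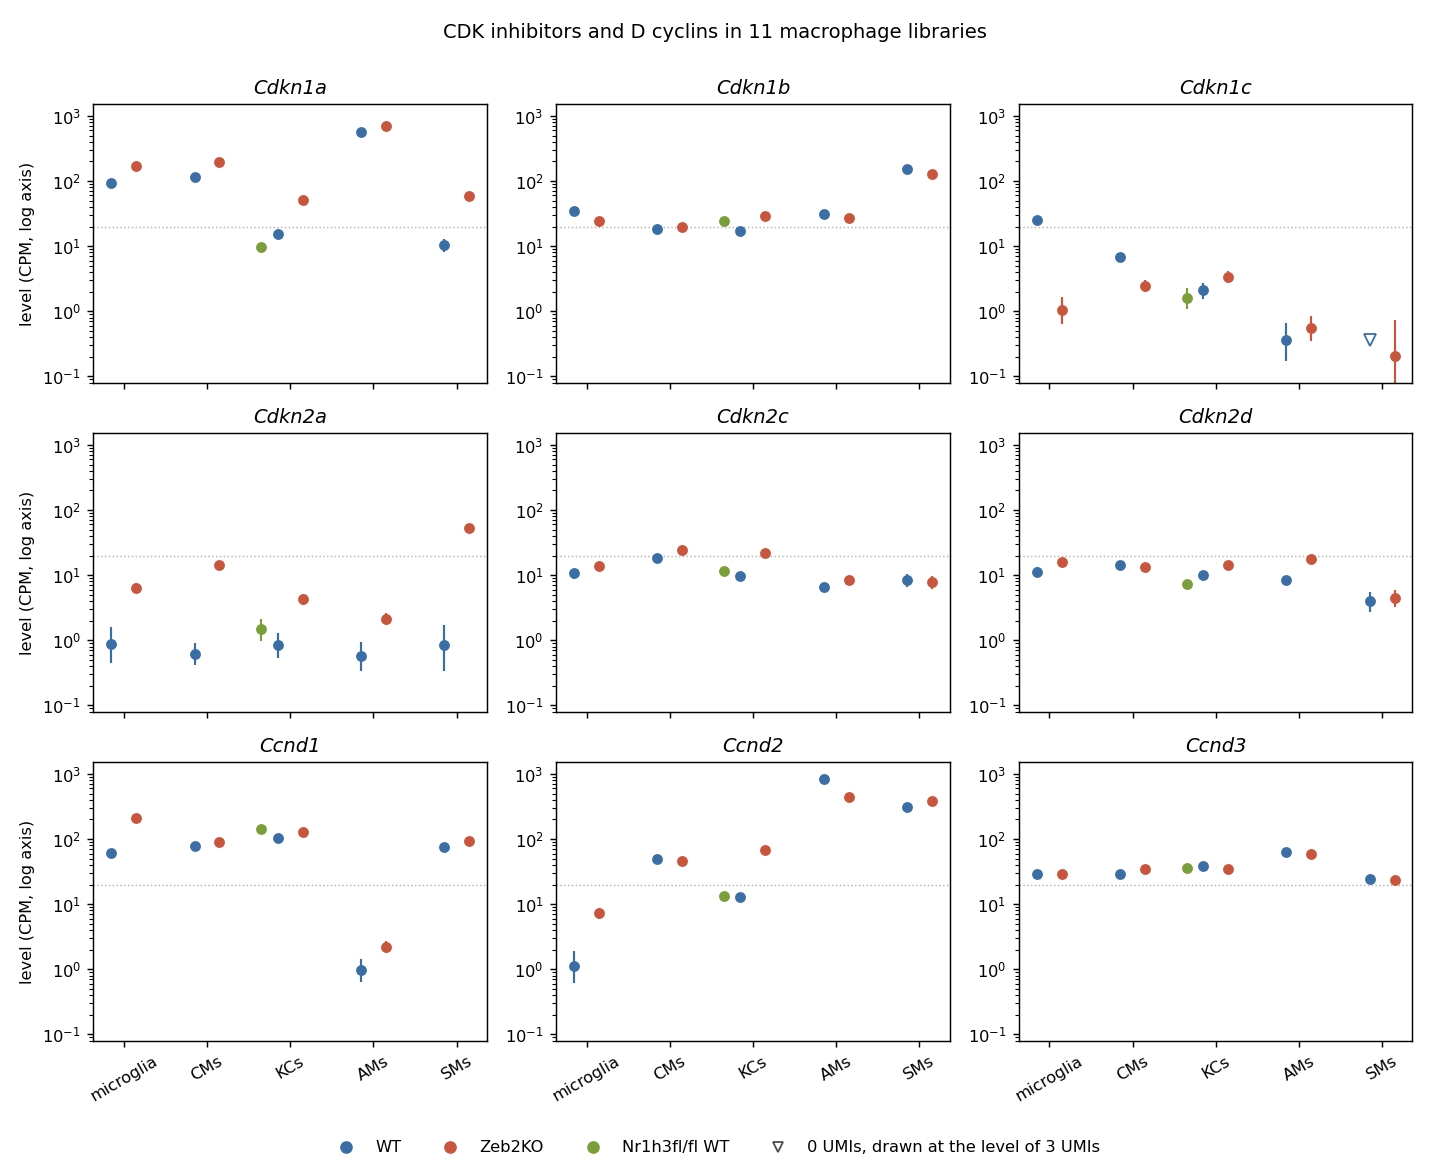
Level of each gene (CPM, log axis) by tissue, with WT in blue, Zeb2KO in red and Nr1h3fl/fl WT KCs in green; bars are exact Poisson 95% intervals, the dotted line is at 20 CPM and the open triangle is a library with 0 UMIs drawn at the level of 3 UMIs. Cdkn2a lies under 0.9 CPM in the 5 Zeb2fl/fl WT libraries and reaches 53.1 CPM in Zeb2KO SMs, and Ccnd2 spans 1.14 CPM (WT microglia) to 827 CPM (WT AMs).

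For a pair of libraries, the size rule for a change asked for 20 CPM or more in the higher library and a log2 ratio of 1 or more in either direction, with 1 CPM added to each level. By this rule Ccnd1 was higher and Cdkn1c lower in Zeb2KO microglia (2 of 5 members at that level, beside 8.34% of all such genes). None of 5 members changed in CMs (1.56% of genes). Cdkn1a, Cdkn2c and Ccnd2 were higher in Zeb2KO KCs (3 of 6, beside 4.6% of genes). None of 4 members changed in AMs (11.7% of genes), and Cdkn1a and Cdkn2a were higher in Zeb2KO SMs (2 of 6, beside 3.19%). Between both WT KC libraries none of 3 members changed (1.37% of genes). Set against the Nr1h3fl/fl library, Zeb2KO KCs again had more Cdkn1a and Ccnd2 (2 of 6, beside 8.22% of genes). Cdkn2c then stood at a log2 ratio of 0.85. Apart from Ccnd1 in microglia, each of these calls passed 20 CPM only through the higher of its libraries, so the counts describe the members and are no support for a difference.

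Cdkn1a, Cdkn2a and Ccnd1 were the members higher in Zeb2KO in all 5 tissues. Ccnd1 in SMs was, however, at 74.3 CPM in Zeb2KO and 76.2 in WT (log2 ratio -0.036) without a cluster led by S100a8, described below. That cluster was found almost only in Zeb2KO, and its mac markers were not lower than elsewhere. Of 11156 genes with at least 5 CPM in any of the 10 libraries, 580 (5.20%) were higher in all 5 tissues and 890 (7.98%) were lower in all 5. In the AM pair the median log2 ratio over all genes at 20 CPM or more was -0.31, so ratios in AMs are best read against that value. In a fit over the 5 pairs with tissue as a block (edgeR quasi-likelihood test), none of 14158 genes passed (0%), with 1589 at an unadjusted p under 0.05. Cdkn2a had a common log2 fold change of 3.53 ± 0.60 (SE, adjusted p = 0.191) and Cdkn1a one of 1.25 ± 0.30 (adjusted p = 0.255). Ccnd1, Cdkn2c, Cdkn2d and Ccnd2 had smaller values, 0.75 (adjusted p = 0.418), 0.51 (adjusted p = 0.363), 0.51 (adjusted p = 0.463) and 0.80 (adjusted p = 0.603). DESeq2 on the same design called 346 of 13162 genes (2.63%), among them Cdkn2a (adjusted p = 6.55e-07) and Cdkn1a (adjusted p = 0.00310) and no other member. The call for both genes therefore rested on the tool used.

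**Figure D2:**
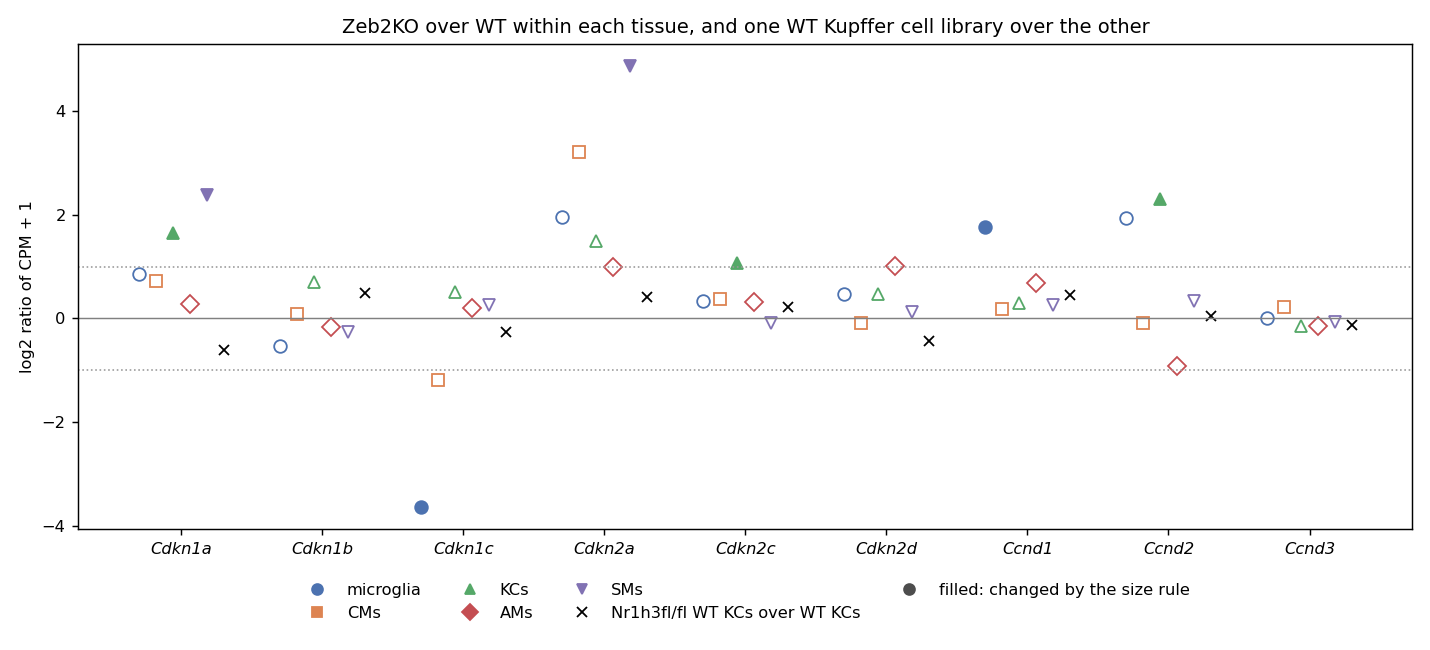
Log2 ratio of CPM + 1, Zeb2KO over WT, for each gene and tissue, with filled markers for changes by the size rule and crosses for the Nr1h3fl/fl WT over the Zeb2fl/fl WT library of KCs; dotted lines mark ratios of 1 and -1. Cdkn2a ranges from 0.99 in AMs to 4.87 in SMs, Cdkn1c reaches -3.64 in microglia, and the WT pair stays between -0.61 and 0.49.

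Cdkn1a encodes p21, which is induced by p53 and by many stress and differentiation signals. WT SMs had 10.3 CPM (8.21 to 12.7), WT KCs 15.4, WT microglia 94.9, WT CMs 115.8 and WT AMs 573, and the intervals of neighbours in this order did not overlap. The Nr1h3fl/fl WT KCs, at 9.73 CPM, overlapped with WT SMs. In Zeb2KO the level was 58.2 in SMs, 50.5 in KCs, 172.7 in microglia, 192.9 in CMs and 699 in AMs. Every Zeb2KO library thus lay above its WT partner, and the order of the tissues was kept except that KCs and SMs traded places. That swap was lost without the S100a8 cluster of spleen, where Zeb2KO SMs were at 43.3 CPM, below Zeb2KO KCs. Over all kept cells the ratio was 5.67-fold (4.51 to 7.21) in SMs and 3.28-fold (2.93 to 3.69) in KCs, both changed by the size rule. It was 1.82-fold in microglia, 1.67-fold in CMs and 1.22-fold in AMs. Between the WT KC libraries it was 0.633-fold.

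The share of cells with a Cdkn1a UMI, after each cell had been thinned to 1500 UMIs, went from 1.08% (0.708 to 1.58) to 6.53% (5.59 to 7.58) in SMs and from 1.25% to 5.29% in KCs, and was 51.8% and 55.1% in AMs. Unthinned, the shares were 2.07% and 10.7% in SMs, 3.47% and 12.1% in KCs and 77.0% and 83.2% in AMs. Thinning left out 837 of 3241 WT and 541 of 3007 Zeb2KO SMs. For comparison with other cells of the same libraries, the left-out B cell cluster of spleen had Cdkn1a in 0.314% of 637 WT and 1.60% of 376 Zeb2KO cells (medians 2072 and 3005.5 UMIs). That of liver had it in 1.41% of 142 WT cells and 10% (5.43 to 16.5) of 130 Zeb2KO cells, at medians of 3500 and 3804.5 UMIs. The unthinned 12.1% of Zeb2KO KCs lies inside that last interval. The KCs were deeper, however (median 5871 UMIs), and no thinned share was taken for B cells, so these shares are not at a common depth. The level was 26.3 CPM in these B cells and 50.5 CPM in the KCs. CRE can act in B cells, and droplets shared by cells (doublets) were not removed. Free RNA, doublets with macs and transcripts of the B cells themselves therefore cannot be told apart in the Zeb2KO clusters.

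RefSeq gives Cdkn1a (chromosome 17, 29090976 to 29100727, plus strand, GENCODE M21 on GRCm38/mm10) 2 start sites with a promoter entry. ZEB factors are known to bind the E-box CACCTG, so the members' promoters (250 bases before to 50 after the start) were searched for these letters on both strands. They were found in 1 of 10 windows from the 6 members with an entry (Cdkn1a, Cdkn1b, Cdkn2a, Cdkn2c, Cdkn2d and Ccnd3), and in 20.2% of 32851 windows of the genome. The window that holds them is shown as the only match among the members. The windows of Cdkn2a, like Cdkn1a higher in Zeb2KO in each tissue, do not hold them, and binding was not tested. The Cdkn1a window is written 5′ to 3′ along the gene. Capitals mark the match, which reads CACCTG on the other strand 187 bases before the start.
Cdkn1a, GRCm38.p6 chr17:29093519-29093818, plus strand: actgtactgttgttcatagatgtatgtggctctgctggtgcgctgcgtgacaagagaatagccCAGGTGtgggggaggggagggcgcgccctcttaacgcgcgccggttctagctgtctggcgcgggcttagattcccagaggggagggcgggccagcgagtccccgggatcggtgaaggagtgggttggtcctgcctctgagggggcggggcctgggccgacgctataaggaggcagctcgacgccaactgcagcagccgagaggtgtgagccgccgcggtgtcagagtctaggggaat

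Cdkn1b encodes p27, the inhibitor that keeps many resting cells out of the cycle. Its level was highest in SMs, with 155 CPM (147 to 164) in WT and 130 (123 to 137) in Zeb2KO. All other libraries had 17.1 to 35.1 CPM. WT KCs (17.1) and WT CMs (18.5) overlapped in their intervals, as did WT AMs (30.8) and WT microglia (35.1). Zeb2KO microglia had 0.682-fold (0.594 to 0.782) and Zeb2KO KCs 1.67-fold (1.484 to 1.89) the WT level. The second difference was close in size to the 1.43-fold between WT KC libraries. After thinning, 21.2% of WT and 17.1% of Zeb2KO SMs had a UMI (30.5% of each unthinned). B cells transcribe Cdkn1b themselves, and the spleen B cell clusters had it in 23.9% of cells in either genotype.

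Cdkn1c encodes p57 and is an imprinted gene, transcribed mainly from the maternal copy. In WT macs the order was microglia (24.8 CPM, 22.1 to 27.7), CMs (6.90), KCs (2.09), AMs (0.364) and SMs, where none of 8270813 UMIs was from Cdkn1c, which allows a level of up to 0.363 CPM. Intervals of AMs and SMs overlapped. Zeb2KO microglia had 1.06 CPM (0.630 to 1.68), or 18 UMIs against 306 in WT, a ratio of 0.0429 (0.0251 to 0.0689). Zeb2KO CMs had 2.46 CPM, a ratio of 0.356 (0.278 to 0.452), and Zeb2KO KCs had 3.39 CPM, 1.62-fold (1.14 to 2.34) the WT level. Cells with a UMI went from 3.78% (3.11 to 4.55) to 0.185% (0.0679 to 0.402) in thinned microglia (8.83% and 0.401% unthinned). Both large WT clusters of microglia had a similar level, 26.5 CPM in the cluster led by Jam3 and Ecscr (1451 cells) and 24.97 CPM in that led by haemoglobin genes and Adamts1 (1286 cells). The 5 Zeb2KO clusters lay between 0 and 1.06 CPM. Over the 5 tissues the fit gave no common direction, with a log2 fold change of -0.94 ± 0.94 (adjusted p = 0.722) that was 0.030 without brain. Of the genes next to Cdkn1c, Cd81, a tetraspanin, was also lower in Zeb2KO microglia (1628 against 3362 CPM).

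Cdkn2a encodes p16INK4a and, from another first exon read in another frame, p19ARF, which stabilises p53. Both transcripts share their 3′ exons, so the counts do not tell them apart. The gene lies on chromosome 4 (89274471 to 89294653, minus strand) and no annotated gene overlaps it. WT libraries held 7 UMIs (SMs), 11 (microglia), 16 (AMs), 21 (KCs) and 27 (CMs), or 0.583 to 0.892 CPM, and their intervals all overlapped. The Nr1h3fl/fl WT KCs had 1.481 CPM (0.984 to 2.14). Zeb2KO libraries held 517, 108, 80, 110 and 518 UMIs in the same order, or 53.1, 6.38, 2.15, 4.24 and 14.1 CPM. No Zeb2KO interval overlapped that of its Zeb2fl/fl partner, as was the case for 20% of all genes with a UMI in SMs, 23.9% in CMs, 28.9% in KCs, 32.3% in microglia and 49% in AMs. SMs had the largest ratio, 62.8-fold (30.2 to 157), followed by CMs with 22.7-fold (15.4 to 34.8), microglia with 7.15-fold (3.84 to 14.8), KCs with 4.93-fold (3.07 to 8.28) and AMs with 3.68-fold (2.13 to 6.75). Against the Nr1h3fl/fl KCs that of Zeb2KO KCs was 2.86-fold (1.87 to 4.50), and between the WT KC libraries 1.72-fold (0.944 to 3.19). SMs were the only tissue that reached 20 CPM. Cells with a UMI after thinning went from 0.208% (0.0676 to 0.485) to 6.57% (5.62 to 7.62) in SMs and from 0.0684% to 1.49% in CMs. Unthinned shares were 0.216% and 10.8% in SMs, and 0.502% and 6.61% in CMs. In the spleen B cell cluster the unthinned share was 0.157% in WT and 2.93% (1.47 to 5.17) in Zeb2KO, the latter below that of the SMs.

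The neighbouring INK4 gene Cdkn2b, which was not in the group, had 0.510 to 2.03 CPM in WT. In Zeb2KO it had 7.499 CPM in SMs (1.21 in WT), 6.50 in microglia (2.03), 2.27 in CMs (0.623), 0.671 in AMs (0.510) and 1.58 in KCs (1.19). Intervals did not overlap in SMs, microglia and CMs.

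The 2 RefSeq promoter windows of Cdkn2a are shown because they are the members' windows with an E2F-like match, spelled TTTNNCGC and searched on both strands, which 5.17% of 32851 windows hold. The upstream window is that of the p19ARF transcript and the downstream that of p16INK4a. Their GC content was 77% and 60.3%. Capitals mark the match, 99 and 244 bases before the start. The sequences run 5′ to 3′ along the gene.
Cdkn2a upstream start, GRCm38.p6 chr4:89294570-89294869, minus strand: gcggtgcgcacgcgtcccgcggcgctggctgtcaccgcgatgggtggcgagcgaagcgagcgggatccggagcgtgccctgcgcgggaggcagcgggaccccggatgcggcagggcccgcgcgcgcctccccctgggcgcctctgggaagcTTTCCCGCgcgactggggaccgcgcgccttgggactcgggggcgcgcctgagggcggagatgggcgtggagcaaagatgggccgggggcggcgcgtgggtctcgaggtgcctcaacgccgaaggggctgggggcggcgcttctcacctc
Cdkn2a downstream start, GRCm38.p6 chr4:89282143-89282442, minus strand: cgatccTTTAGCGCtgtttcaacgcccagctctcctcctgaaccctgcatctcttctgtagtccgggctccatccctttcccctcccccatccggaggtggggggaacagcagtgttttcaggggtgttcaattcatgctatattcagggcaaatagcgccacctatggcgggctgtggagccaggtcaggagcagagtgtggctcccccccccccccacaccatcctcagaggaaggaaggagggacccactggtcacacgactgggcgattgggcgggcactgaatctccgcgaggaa

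Cdkn2a was not spread evenly over the cells of a library. The cells of each tissue had been clustered together without the 9 genes, and clusters of at least 50 cells are described by the genes that lead them. In Zeb2KO CMs the cluster led by Retnla, Vsig4 and Lyve1 held 20.3% of cells and 51.2% of the Cdkn2a UMIs (39.9 CPM). Vsig4 and Lyve1 are markers of long-lived resident macs in several tissues, but the age of these cells was not measured. The same cluster in WT CMs had 2.24 CPM (5 UMIs in 277 cells). In Zeb2KO SMs, 5 of 6 clusters lay between 61.6 and 97.0 CPM. The exception, led by the neutrophil genes S100a8, S100a9 and Camp (710 Zeb2KO and 13 WT cells), had 18.9 CPM. It was kept because its mac markers were not lower than elsewhere (mean log2 fold 0.34). In addition, 0 genes of the neutrophil list met the share of cells asked for. Whether the cluster held neutrophils was not tested. Without it, a choice made after seeing the data, the SM libraries had 64.5 CPM of Cdkn2a in Zeb2KO and 0.851 in WT, and 43.3 and 10.1 CPM of Cdkn1a, and both genes were still changed by the size rule. A cluster with B cell genes (Fcer2a, Cd72) that had been kept had 65.8 CPM in its 137 Zeb2KO cells and 1.32 CPM in its 216 WT cells. The cluster led by Ppbp and Slc7a11 was present in both genotypes and had 1 UMI in 119 WT cells and 67 UMIs in 343 Zeb2KO cells.

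In liver and lung the largest Zeb2KO cluster had little Cdkn2a. The study took SiglecF on KCs, and EpCam and CD101 on AMs, as marks of cells that had lost Zeb2. It checked these by measuring Zeb2 mRNA with qRT-PCR and flow cytometry. For CMs the study used higher Zeb2, Ms4a1 and Siglecf RNA as such marks. The Zeb2KO CM cluster led by Hp and Ms4a1 had less Cdkn2a than the Retnla cluster, as given below. The 3′ counts used here do not tell deleted from undeleted cells. The Siglecf cluster of Zeb2KO KCs, 48.9% of cells, had 13 of 110 UMIs (1.06 CPM). Most Cdkn2a UMIs of the Zeb2KO KC library, and with them its ratio over WT, thus came from clusters not led by Siglecf. Of these, the Cx3cr1 and Ccr2 cluster had 0.982 CPM and the cluster led by Meg3 and Cd209f had 5.001. Highest was the cluster led by haemoglobin genes, with Sdc2 and Clec4f after them, that made up most WT KCs, with 18.9 CPM (11 UMIs) in its 109 Zeb2KO cells and 0.371 CPM (6 UMIs) in its 2486 WT cells. Across clusters, cycling cells (defined below) held 30 of the 110 UMIs of Zeb2KO KCs. In Zeb2KO AMs the cluster led by Krt18 and Krt8, 46.8% of cells, had 2 of 80 UMIs (0.0992 CPM), and the mitotic cluster led by Ube2c had 38 (19.4 CPM). Zeb2KO microglia showed a narrower range, from 3.19 to 8.14 CPM over 5 clusters.

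In the Zeb2KO libraries of SMs and CMs, Cdkn1a and Cdkn2a were highest in different clusters. In SMs Cdkn1a was highest (103 CPM) in the S100a8 cluster, which had the least Cdkn2a, and lowest (23.2 CPM) in the Ppbp cluster, which had the most. In Zeb2KO CMs the Retnla cluster had 208 CPM and the cluster led by Hp and Ms4a1 had 366 CPM, where Cdkn2a was at 3.07 CPM. In Zeb2KO KCs the Meg3 cluster (482 cells) had 125 CPM and the Siglecf cluster 30.5 CPM, the same order as for Cdkn2a. A set of 60 Zeb2KO cells led by the dendritic cell genes Cd209a, Ccl22 and Flt3 had 306 CPM. In WT KCs 68 cells led by Alox15 and Prg4, genes typical of peritoneal macs, held 136 of the 376 Cdkn1a UMIs. WT microglia had 25.1 CPM in the Jam3 cluster, 154 CPM in the Adamts1 cluster and 106 CPM in 67 cells led by Lgals3 and Nes, and the clusters of Zeb2KO microglia had 32.8 to 288 CPM. AM clusters were closest to each other, with 432 to 823 CPM in WT and 519 to 995 CPM in Zeb2KO.

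**Figure D3:**
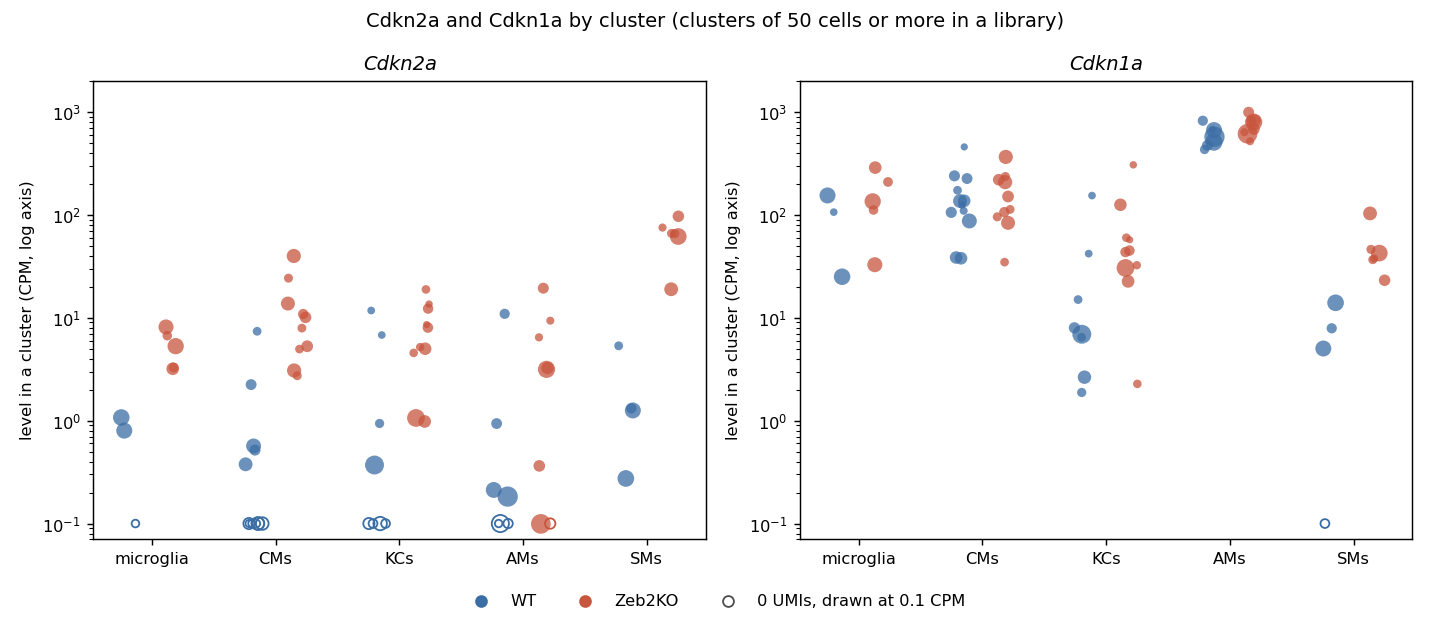
Level of Cdkn2a (left) and Cdkn1a (right) in each cluster of at least 50 cells of a library (CPM, log axis); each circle is a cluster, its area grows with the square root of its cell number, and open circles have 0 UMIs and are drawn at 0.1 CPM. All 6 Zeb2KO SM clusters (18.9 to 97.0 CPM of Cdkn2a) lie above all 4 WT clusters.

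Cdkn2c and Cdkn2d encode the INK4 inhibitors p18 and p19INK4d, which are known to rise in S phase. Cdkn2c had 6.67 CPM in WT AMs, 8.34 in SMs, 9.78 in KCs, 10.6 in microglia and 18.4 in CMs, and among these neighbours CMs alone stood apart from the next. Zeb2KO KCs had 21.6 CPM, 2.21-fold (1.89 to 2.58) the WT level, and the ratio was 0.936 to 1.31 elsewhere. With cycling cells left out the log2 ratio in KCs was 0.73 in place of 1.07, so that the change rested in part on those cells. The call was also lost with 5 CPM added in place of 1 (0.85) and at a floor of 50 CPM. Cdkn2d had 3.99 CPM in WT SMs, 8.45 in AMs, 10.2 in KCs, 11.1 in microglia and 14.4 in CMs. Its clearest difference was in AMs, with 17.97 CPM (16.6 to 19.4) in Zeb2KO and a ratio of 2.13 (1.83 to 2.48), under the 20 CPM of the size rule. After thinning 1.05% (0.825 to 1.32) of WT and 2.46% (2.09 to 2.88) of Zeb2KO AMs had a Cdkn2d UMI, and unthinned 2.81% and 9.02%.

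Among the D cyclins, WT AMs had the least Ccnd1 and the most Ccnd2. Ccnd1, the form that growth factors induce in many cell types, had 0.984 CPM (0.648 to 1.43) in WT AMs, 61.6 in microglia, 76.1 in SMs, 78.9 in CMs and 103 in KCs, where SMs and CMs overlapped. The 142 CPM of Nr1h3fl/fl WT KCs exceeded the 128 CPM of Zeb2KO KCs. Ccnd2, a D cyclin typical of haematopoietic cells, had 1.14 CPM (14 UMIs) in WT microglia, 12.8 in KCs, 48.6 in CMs, 308 in SMs and 827 in AMs, with no overlap between neighbours. Ccnd3 was in a narrow band of 23.5 to 64.1 CPM in all 11 libraries and was highest in AMs. SMs (24.7), CMs (29.1) and microglia (29.2) overlapped in WT.

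Of the summed D cyclin UMIs, Ccnd1 made up 67.0% in WT microglia, 66.7% in WT KCs and 50.4% in WT CMs. Ccnd2 made up 75.3% in WT SMs and 92.7% in WT AMs. The leading D cyclin of a tissue was the same in both genotypes in all 5 tissues. UMIs at the 3′ end count molecules and need no scaling by transcript length, although capture can differ between genes. Summed levels went from 91.9 to 248 CPM in microglia, from 155 to 230 in KCs (191 in Nr1h3fl/fl WT) and from 408 to 505 in SMs, were 157 and 170 in CMs, and were 892 and 497 in AMs.

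**Figure D4:**
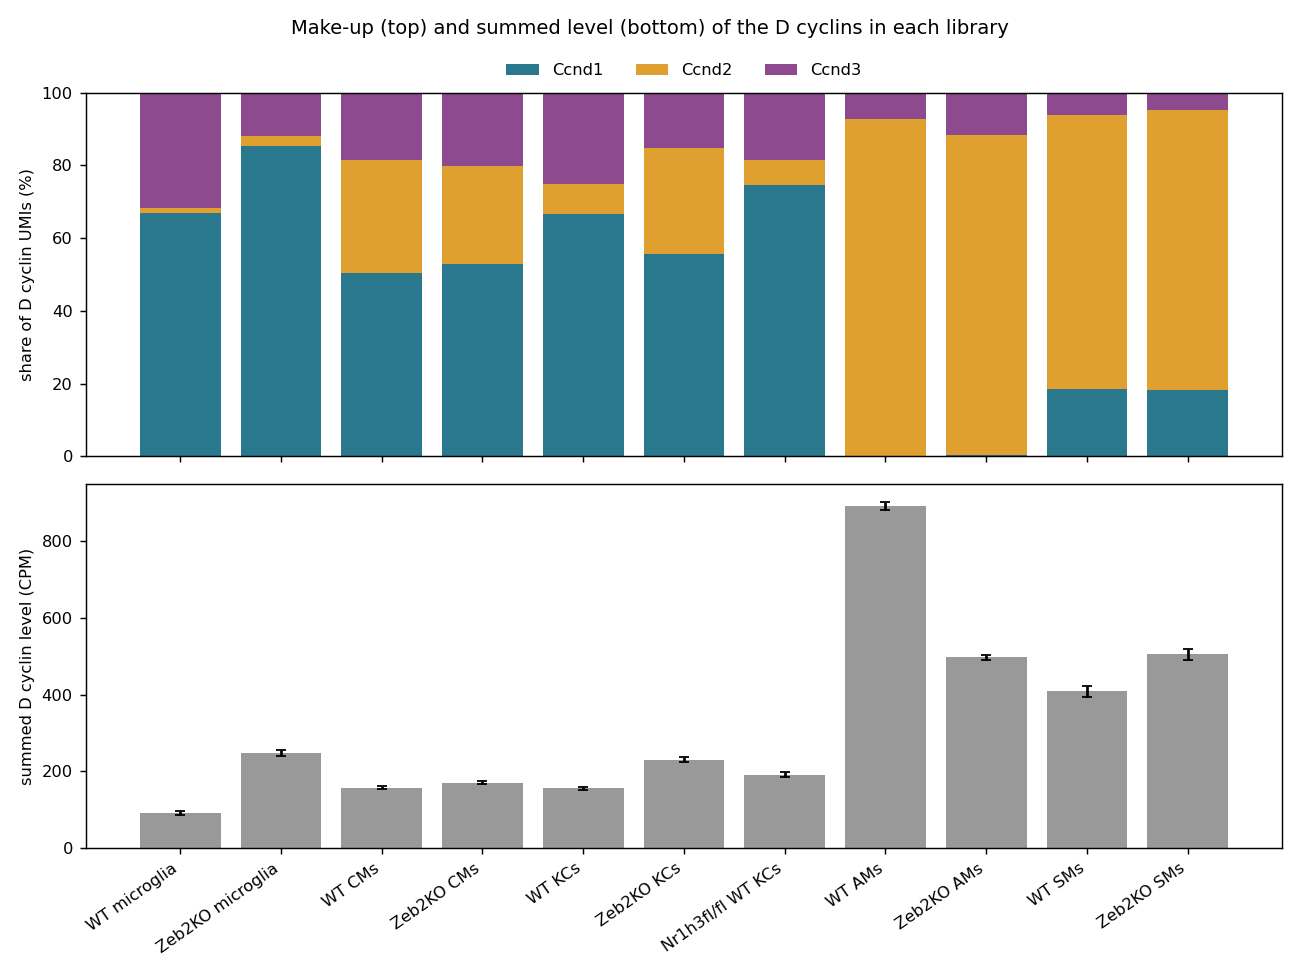
Share of each D cyclin in the summed D cyclin UMIs (top, %) and the summed level (bottom, CPM, with exact Poisson 95% intervals) in each of the 11 libraries. Ccnd2 is the largest share in the 4 AM and SM libraries and Ccnd1 in the other 7, and the sum is highest in WT AMs (892 CPM) and lowest in WT microglia (91.9 CPM).

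Between genotypes, Ccnd1 was higher by the size rule in Zeb2KO microglia, at 211 against 61.6 CPM (3.42-fold, 3.17 to 3.71), and cells with a UMI went from 8.16% (7.18 to 9.23) to 26.1% (24.6 to 27.6) after thinning, or 21.7% to 59.4% without. WT clusters of microglia had 59.2 to 87.3 CPM and Zeb2KO clusters 95.4 to 295 CPM, highest in the cluster led by the interferon-response gene Ifit1. Elsewhere the Ccnd1 ratio was 1.14 in CMs, 1.24 in KCs and 1.21 in SMs, and 2.24 (1.43 to 3.59) in AMs at 2.1997 CPM. The KC value turned to 0.899 (0.854 to 0.946) against the Nr1h3fl/fl library, so Ccnd1 in KCs had no stable direction.

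Ccnd2 was higher by the size rule in Zeb2KO KCs, at 67.4 against 12.8 CPM (5.28-fold, 4.68 to 5.97), and was 1.03-fold (0.870 to 1.22) between the WT KC libraries. Thinned shares were 1.77% (1.39 to 2.22) and 8.58% (7.73 to 9.50), unthinned 5.93% and 24.5%. The Siglecf cluster had 98.3 CPM (92.8 to 104) and 68.7% of the Zeb2KO UMIs, and the Meg3 cluster had 15.8 CPM. In AMs Ccnd2 was lower in Zeb2KO, at 437 against 827 CPM (0.528-fold, 0.518 to 0.539), and thinned shares were 66.0% and 46.1% (87.1% and 81.3% unthinned). That log2 ratio of -0.92 did not reach the size rule, and the median gene of that pair was at -0.31. WT AM clusters had 436 to 1075 CPM and Zeb2KO clusters 135 to 822 CPM. Zeb2KO microglia had 7.21 CPM of Ccnd2, a ratio of 6.35 (3.64 to 11.96), larger than that of Ccnd1 there but under the 20 CPM of the rule. It was 1.27-fold in SMs and 0.943-fold in CMs. B cells transcribe Ccnd2 and are no measure of its free RNA, with 19.2% of B cells in Zeb2KO and 7.04% in WT liver. Ccnd3 stayed within 0.899-fold and 1.17-fold in all 5 tissues.

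Cycling cells were those with UMIs of at least 3 of 24 genes of the S, G2 and M phases, none of them a member. After thinning they were 0 of 2830 WT and 0.802% of Zeb2KO microglia, 1.98% and 2.44% of CMs, 1.67% and 5.85% of KCs (2.76% in Nr1h3fl/fl WT), 2.56% and 3.79% of AMs and 1.12% and 1.01% of SMs. The interval of WT microglia reached up to 0.130%. Intervals of the genotypes did not overlap in microglia, KCs and AMs, nor did those of both WT KC libraries (1.301 to 2.11 and 2.25 to 3.35). By the study's Ki-67 staining, SiglecF+ KCs and EpCam+ AMs proliferated little. SiglecF- KCs and EpCam- AMs of the same mice proliferated more than those of WT. Unthinned, over the liver libraries, 3.52% of the Siglecf cluster and 12.5% of the Cx3cr1 and Ccr2 cluster were cycling. The cluster led by Nusap1 and Ube2c was at 97.6%, so those shares do not cover all cycling cells. Cycling and other cells were compared within the 10 libraries with at least 20 cycling cells. Cycling cells were deeper (medians of 4544 to 14841 against 2206.5 to 8903 UMIs), and levels here are CPM of each set.

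With library as a block, 4 members rose and 1 fell in cycling cells (edgeR quasi-likelihood test, adjusted over 12849 genes), beside 39.6% of genes called, 1248 up and 3842 down. The INK4 genes rose most. Cdkn2c had 38.5 to 255 CPM in cycling and 3.41 to 18.8 CPM in other cells, without overlap and higher in all 10 libraries, with a log2 fold change of 2.63 ± 0.22 (adjusted p = 8.07e-09). Cdkn2d had 21.1 to 180 CPM against 3.25 to 14.2 CPM, again higher in all 10, with 2.13 ± 0.20 (adjusted p = 5.57e-08). Cdkn2a rose by 1.58 ± 0.45 (adjusted p = 0.00843), and was higher in 8 of 10 libraries. Zeb2KO SMs went the other way, with 19.3 CPM (4 UMIs) in 39 cycling and 53.9 CPM in other cells. However, a kept spleen cluster of 88 cells, 68.2% of them cycling, had Xcr1, Il12b and Top2a among its leading genes. Its nearest other list was that of dendritic cells (mean log2 fold 1.91), and its mac markers were lower than elsewhere (-0.83). Cycling state and cell type therefore cannot be told apart in the SM libraries. WT SMs gave no direction, since 0 UMIs in 45 cycling cells allow up to 12.7 CPM and the other cells had 0.871 CPM. Cycling cells held 12 of the 16 Cdkn2a UMIs of WT AMs, 13 of 27 in WT CMs and 10 of 21 in WT KCs, and 0.774% of those of Zeb2KO SMs. With cycling cells left out, Cdkn2a in Zeb2KO was 61.8-fold (29.8 to 155) the WT level in SMs, 37.6-fold (22.2 to 69.4) in CMs, 7.85-fold (4.16 to 16.4) in KCs, 7.37-fold (2.66 to 28.4) in AMs and 6.12-fold (3.26 to 12.7) in microglia. The values of CMs, KCs and AMs were thus over 1.5 times those of all cells, with 14, 11 and 4 UMIs left in WT.

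Ccnd3 rose slightly, by 0.42 ± 0.08 (adjusted p = 2.65e-04), in all 10 libraries. Ccnd2 fell by 0.69 ± 0.08 on the log2 scale (adjusted p = 2.205e-06) and was lower in 8 of 10. Ccnd1 (-0.18, adjusted p = 0.117) and Cdkn1b (-0.19, adjusted p = 0.0520) did not pass, nor did Cdkn1c (-0.66, adjusted p = 0.0963). Ccnd1 did pass with at least 5 cycling genes per cell (-0.39, adjusted p = 0.00300). Cdkn1b passed with at least 2 (adjusted p = 0.0127), without the filter on low counts (0.0281) and without the Nr1h3fl/fl library (0.0499). Cdkn1a did not pass either (0.76 ± 0.33, adjusted p = 0.0739), though it was higher in cycling cells of 9 of 10 libraries. It passed under 5 alternatives, which were at least 5 cycling genes per cell (adjusted p = 0.0467) and leaving out WT CMs (0.0356), Zeb2KO AMs (0.0436), Zeb2KO CMs (0.0277) or Zeb2KO KCs (0.0497). The 36 cycling Zeb2KO microglia had 2334 CPM (2150 to 2529) of Cdkn1a against 140 CPM in other cells, and held 595 of 2923 UMIs. Cycling cells of the Nr1h3fl/fl WT KCs had 52.6 CPM against 6.18 CPM. CMs hardly differed, with 130 against 114 CPM in WT and 198 against 192 CPM in Zeb2KO.

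**Figure D5:**
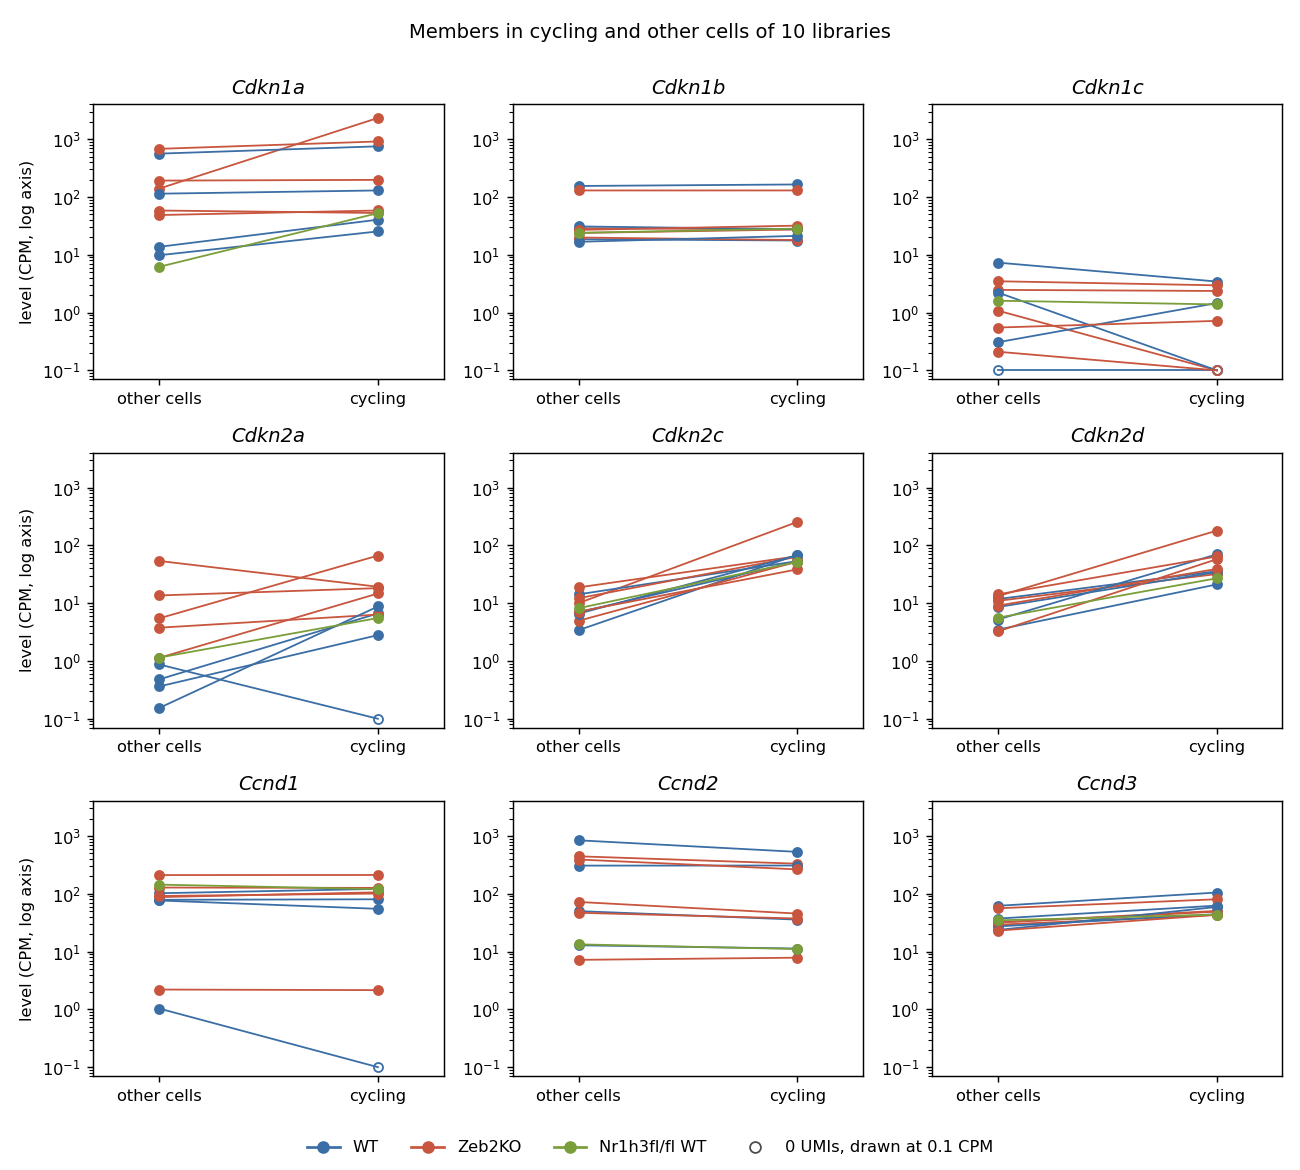
Level of each gene (CPM, log axis) in cycling and other cells of 10 libraries, with a line joining the values of a library and open circles for 0 UMIs drawn at 0.1 CPM. Cdkn2c, Cdkn2d and Ccnd3 are higher in cycling cells in all 10 libraries and Ccnd2 is lower in 8.

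By the size rule none of the CDKs and other G1/S cyclins at 20 CPM (4 or 5 of 9 per tissue) changed, nor any pocket protein or E2F factor (1 to 5 of 13), ubiquitin ligase or other gene of cyclin and inhibitor turnover (6 to 10 of 16) or Polycomb gene (7 to 11 of 17), the last a group that silences Cdkn2a in many cell types. These are few genes beside the 1.56% to 11.7% of all genes changed per tissue, and genes of the lists under 20 CPM were not judged. Of 18 genes of the p53 list, Pmaip1, which encodes a death-promoting BCL2-family protein, was higher in Zeb2KO microglia (451 against 41.6 CPM) and KCs (109 against 27.8 CPM), and Phlda3 was lower in AMs. Among 23 transcription factors with known D cyclin or CDK inhibitor targets, Id2 was higher in CMs, KCs and AMs, and Id1, like Id2 an inhibitor of basic helix-loop-helix factors, in KCs and AMs. Cebpa, a myeloid factor, was lower in microglia and AMs. In AMs 5 of the 14 transcription factors at 20 CPM were higher and 2 lower, beside 11.7% of all genes changed. No gene of these lists passed the fit over the 5 tissues. The imprinted non-coding RNA Meg3 was higher in Zeb2KO KCs (49.4 against 0.123 CPM) and SMs (725 against 5.32 CPM), and Kcnq1ot1, from the imprinted domain of Cdkn1c, was lower in AMs (81.9 against 292 CPM). Of the 24 cycling genes, 10 of the 11 at 20 CPM were higher in Zeb2KO KCs (beside 4.6% of all genes changed). Against the Nr1h3fl/fl library 8 of 11 were higher (beside 8.22%). None changed among the 6 at that level in CMs, the 5 in AMs and the 2 in SMs. In microglia none of them reached 20 CPM, and their summed level was 131 CPM in Zeb2KO and 30.5 CPM in WT.

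Immediate early and stress genes, which respond to tissue handling, differed in opposite directions in KCs and SMs. Of 15 genes, 8 were higher in Zeb2KO KCs (median log2 ratio 1.03, beside 4.6% of all genes changed) and 6 were lower in Zeb2KO SMs (median -0.67, beside 3.19%). Of 13 at 20 CPM, 5 were lower in Nr1h3fl/fl than in Zeb2fl/fl WT KCs (beside 1.37%), and 13 of 15 were higher in Zeb2KO than in Nr1h3fl/fl KCs (beside 8.22%). In AMs 4 were higher and 2 lower (beside 11.7%), in microglia Nr4a1 alone was higher (beside 8.34%), and in CMs none changed (beside 1.56%). Their part in the results was not tested. Marker lists of cells other than macs are given where their sum reached 20 CPM and differed at least 2-fold, with 1 CPM added. In Zeb2KO SMs the monocyte list (5 of 5 detected) summed to 227 against 81.4 CPM and the plasma cell list to 101 against 30.1 CPM, with Sdc1 at 0. The erythroid list was 25.1 against 52.5 CPM and the endothelial list 72.4 against 166 CPM there. The neutrophil list of SMs (6 of 6 detected), which did not meet this mark, summed to 46.5 CPM in Zeb2KO and 60.5 CPM in WT. In Zeb2KO AMs the neutrophil list (4 of 6 detected, Camp and Ngp at 0) summed to 240 against 24.6 CPM and the monocyte list (5 of 5) to 76.2 against 8.09 CPM. The hepatocyte list summed to 346 against 941 CPM there, with 1 gene at 1 CPM or more in either library. Alb and Serpina1c were at 0 in both, and Apoa1 in Zeb2KO. In CMs the neutrophil list (4 of 6, Camp and Ngp at 0) was 28.1 CPM in Zeb2KO and 2.05 in WT, the B cell list 9.99 and 44.3 CPM and the T or NK cell list 6.47 and 21.4 CPM. No such list met the mark in KCs. In microglia the neutrophil list was 96.2 against 1.05 CPM with Retnlg, Camp, Ltf, Ngp and Mmp8 at 0 in Zeb2KO, so a single gene of the list, Cxcr2, carried the sum. The list of plasmacytoid dendritic cells (2 of 4 detected, Klk1 and Ly6d at 0) was 99.2 against 13.5 CPM there, the monocyte list 38.6 against 6.40, the neural list 31.5 against 13.6 and the B cell list (Pax5 and Ebf1 at 0) 23.9 against 57.3. The platelet list of microglia was 12.5 against 91.2 CPM with Ppbp and Gp1bb at 0 in both. A single gene was at 1 CPM or more in either library for the platelet, B cell and plasmacytoid dendritic cell lists of microglia. The same held for the T or NK cell list of CMs. The part of these in the results was not tested.

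In cycling cells, 6 of 9 CDK and G1/S cyclin genes rose and 1 fell, led by Ccne2 (log2 fold change 5.23) and Ccne1 (3.93), the cyclins that follow the D cyclins. Of the pocket proteins and E2F factors 7 of 13 rose and none fell, led by E2f7 (5.82), E2f8 (4.76) and E2f2 (2.15). The turnover list had 4 of 16 higher and 5 lower, with Dtl (4.15), which targets p21 for degradation in S phase, and Cks1b (2.85), which helps to mark p27 for it. Ezh2, the Polycomb methyltransferase, rose by 2.60, among 4 higher and 6 lower of 17. The p53 list held 1 higher and 2 lower of 17, and the transcription factors none higher and 16 lower of 22, among them Mxd4 (-0.70), an antagonist of MYC. All 15 immediate early genes were lower, led by Junb (-0.90). Of all genes tested 9.71% rose and 29.9% fell, their median was -0.19, and each value given here passed the adjusted threshold.

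Genes with the most similar pattern over the 11 libraries were found by Pearson's r of log2(CPM + 1) among 8035 genes with at least 20 CPM in any library. Libraries of a tissue and instrument are not independent, so r is given as a description. Cytip (r = 0.982) and Bhlhe40 (0.961) were most like Ccnd2. Aif1 (0.977) and B3galnt1 (0.976), which were at or near 0 in AMs, were most like Ccnd1. Grsf1 (0.985) and Sgip1 (0.971), highest in SMs, were most like Cdkn1b, and Mbp (0.959) and Fam50a (0.953) most like Cdkn1a. Cdkn1c was most like Mdfi (0.928), with 36.6 CPM in WT and 0.236 CPM in Zeb2KO microglia, and Tmem204 (0.922), with 32.7 and 4.37 CPM. For Cdkn2a the nearest were Zbtb46 (0.856), with 42.1 CPM in Zeb2KO and 4.35 CPM in WT SMs, Ppa1 (0.839) and Meg3 (0.737). Eef1g (0.913) was nearest to Cdkn2c, and the unnamed gene 9130401M01Rik (0.954) to Ccnd3. Cdkn2d reached 20 CPM in no library and was not compared.

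Annotated genes on the opposite strand overlap Ccnd1 (chromosome 7, 144929931 to 144939925), Ccnd2 (chromosome 6, 127125162 to 127152193), Ccnd3 (chromosome 17, 47505051 to 47599691), Cdkn1a and Cdkn1c (chromosome 7, 143458339 to 143461050). Whether strand was used in the counting is not given in the sources used here, so their counts may hold reads of those genes. No annotated gene overlaps Cdkn1b (chromosome 6, 134920401 to 134925513), Cdkn2a, Cdkn2c (chromosome 4, 109660876 to 109667189) or Cdkn2d (chromosome 9, 21288410 to 21291407).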

How the data were processed

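Macs sorted from 5 mouse tissues were profiled in 11 droplet libraries. Per the labels and the methods of the study, the authors ran Cell Ranger (2.0.0 for KCs and AMs, 2.0.2 for microglia, CMs and SMs) on mm10 and deposited raw UMI counts per gene and cell barcode, which are the unit used. KCs and AMs were sequenced on a NextSeq500 and the rest on a HiSeq. The methods name no separate instrument for the Nr1h3fl/fl library of KCs. The authors left out proliferating cells, which were kept here.

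Barcodes beyond 3 median absolute deviations in UMIs, genes or percent mitochondrial UMIs were removed (4.66% to 9.22%). Cells of a tissue were clustered in scanpy 1.11.5 without the 9 members (2000 variable genes, 30 principal components, 15 neighbours, resolution 0.8), and clusters with markers of other cells were left out (0% to 21.8% of cells). Doublets were not removed; leaving out the 5% of cells with the highest Scrublet scores was an alternative. CPM, shares with exact Clopper-Pearson 95% intervals and log2 ratios with a pseudocount of 1 CPM were computed from the counts; intervals and limits of 0 (3 UMIs) cover counting error only. Counts summed per library, or per library and cycling state, were tested with edgeR 4.0.16 in R 4.3.3 (TMM, filterByExpr, quasi-likelihood F test, threshold 0.05 after Benjamini-Hochberg adjustment), with DESeq2 1.42.0 as an alternative. The tissues served as the replicates of the genotype comparison. In the genotype and tissue fits the spread behind the p-values is how far the Zeb2KO ratio differed between tissues. By the study's methods the tissues also differed in CRE driver, sort gates and instrument. These p-values therefore do not measure the spread between mice of a tissue. Nothing says that the WT or Zeb2KO library of a tissue came from more than 1 sort.

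The members and lists were chosen with earlier results of these data known. All members are named in every library; of each other list, at most 3 genes with the most tissues changed and then the largest mean ratio, or the largest fold change in cycling cells, were named, and 3 genes of most similar pattern per member with at least 20 CPM, of which some are given. Cdkn2b, clusters, other list genes and list changes beyond these were chosen after their values were seen. Promoters are RefSeq windows on GRCm38.p6, with entries for 6 of the 9 members and none for Cdkn1c, Ccnd1 and Ccnd2; gene positions are GENCODE M21.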

Additional observations from a re-analysis of the deposited data

Results flagged for a closer look

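Cdkn1c went in opposite directions in KCs, with a log2 ratio of Zeb2KO over WT of 0.51, and in microglia, with -3.64. Ccnd2 did so in KCs (2.31) and AMs (-0.92). For Cdkn1c in KCs both levels were under 20 CPM (3.39 in Zeb2KO and 2.09 in WT), and their intervals overlapped (2.72 to 4.17 and 1.55 to 2.74). Each tissue has 1 library per genotype, so neither difference was tested.

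Some signal was found in the B cell clusters that had been left out, above the share in the WT cluster of the same tissue. A Cdkn2a UMI was seen in 2.93% of B cell cluster cells of the Zeb2KO spleen and in 0.157% of the WT spleen. Cdkn1a was seen in 10% of such cells of the Zeb2KO liver and 1.41% of the WT liver, and Ccnd2 in 19.2% and 7.04%. What carried this signal was not tested.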

How the results depend on the processing

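Of the main results, 93 values under the alternatives stayed within 1.5 times the reported count and 14 did not. The count of genes in the genotype fit, 0, was 1 with cycling cells left out (Lrrc14b), 1 with Nr1h3fl/fl as the liver WT (Il1f9), 3 without the filter on low counts (both of these and Serpinb6b), 346 with DESeq2 and 0 to 1 when 1 tissue was left out (Gm9530 without lung, Ms4a1 without spleen). The genes named here were higher in Zeb2KO. In that fit the log2 fold change turned for Cdkn1b (-0.13 without liver in a range up to 0.15 without brain, -0.049 with Nr1h3fl/fl, -0.093 without the tissue block), Cdkn1c (0.030 without brain in a range down to -1.57 without liver), Ccnd2 (-0.20 without the block) and Ccnd3 (-0.0048 without colon in a range up to 0.099 without liver). Cycling cells gave 2863 genes when libraries of a tissue were summed. Members changed within a tissue went to 4 in microglia (9.88% of all genes), 2 in CMs (2.08%) and 1 in AMs (12.2%) at a floor of 5 CPM, to 1 in microglia at 50 CPM (9.02%) and to 1 in AMs (Cdkn2d) with TMM library sizes (9.71%), which shift the AM median from -0.31 to -0.02 and turn Cdkn1b (0.10) and Ccnd3 (0.13) upward there. Members whose shares of cells had separate intervals numbered 6 in microglia and 5 in AMs at 1500 UMIs (17.9% and 33% of all genes) and 3 in each at 1000 UMIs (14.5% and 28.1%). The causes were not tested. Over 57 values by tissue and setting, Cdkn1a and Cdkn2a were above 0 in each, and Ccnd1 in 55. These include changes of floor and pseudocount, which cannot turn a sign, and cluster choices in microglia, where no cluster was left out. The tally therefore overstates how many settings could have differed. Leaving out clusters that came close to the marks of other cells, or the S100a8 cluster of spleen, was chosen after seeing the data and moved none of these counts by over 1.5 times, although some small ratios turned. In SMs, Ccnd3 (-0.066) stood at 0.013 and 0.0054 under these and at 0.0039 without the highest Scrublet scores. Without the S100a8 cluster Ccnd1 there was at -0.036 and Cdkn2c (-0.085) at 0.015. Cdkn2d in SMs (0.12) went to -0.469 with all barcodes and -0.473 with clusters of other cells kept. Leaving out cycling cells turned it to -0.076, Cdkn2c to 0.099 in SMs and, in microglia, Cdkn2c (0.34) to -0.077 and Ccnd3 (0.0084) to -0.0016. Against Nr1h3fl/fl, Ccnd1 in KCs was at -0.15. Genotypes were paired by tissue, and each group has 1 library, so no replicate number could serve as a block.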
